A study of Homo sapiens with 6 samples.

Results

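Erythroid transcription factors were followed in K562 cells, a human erythroleukemia line, after knockdown of PCBP1, a poly C-binding protein that binds C-rich RNA and chaperones iron. The members were GATA1, GATA2, TAL1, KLF1, NFE2, LMO2, LDB1, BCL11A, ZBTB7A and MYB. They were taken by gene symbol from GENCODE release 44, which assigned 111 of the 251612 matched transcripts to these 10 genes. Cells were transduced with lentiviral pLKO.1 plasmids carrying a short hairpin RNA against luciferase (shCtrl) or against PCBP1 (shPCBP1), with 8 µg/mL polybrene, and both groups were then kept in 3 µg/mL puromycin for 4 days. Each group held 3 poly-A RNA libraries, with 83033656 to 140522444 estimated counts per library in shCtrl and 67066747 to 85121124 in shPCBP1. Depth thus went partly with the group. The labels number the replicates and do not say whether they were transduced separately, so p-values measure only the spread between these libraries, which may be technical.

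Red cell formation is driven by a small set of DNA-binding proteins. GATA1 is the master regulator of erythroid genes, and GATA2 is its counterpart in stem and progenitor cells. TAL1 binds DNA with E proteins and is held to GATA factors by the bridging proteins LMO2 and LDB1, which together form the complex that occupies many erythroid enhancers. KLF1 and NFE2 switch on globin and other red cell genes, ZBTB7A and BCL11A repress fetal globin, and MYB keeps progenitors dividing. GATA1 is also made in a short form, GATA1s, which lacks the N-terminal activation domain because translation starts at a later methionine.

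The targeted gene was examined first. PCBP1 in shPCBP1 libraries stood at 18.1% of its level in shCtrl, a log2 fold change of -2.47 (SE 0.0439). Erythroid markers were present in all libraries, with 10 of 10 above a mean of 1 TPM (a length-scaled relative abundance of a transcript) and a summed level of 29067 to 34888 TPM in shCtrl and 33251 to 34680 TPM in shPCBP1. Single erythroid markers went both ways, from -0.97 to 0.35 on the log2 scale. In the DESeq2 test described with the factors, 2 passed higher and 2 lower, the lower ones being TFR2 (-0.97) and EPOR (-0.26). Megakaryocyte markers summed to 261.4 to 265.2 TPM in shCtrl and 237.7 to 259.7 TPM in shPCBP1, with 2 of 14 listed at 0 everywhere. This sum joins members that went both ways, since of 7 with an adjusted p (DESeq2 test described with the factors) GP1BB and ITGB3 rose, by 0.36 and 0.45 on the log2 scale, and ITGA2B, GP6 and NBEAL2 fell, by 1.91, 0.57 and 0.41. Lymphoid markers summed to 65.0 to 76.8 TPM in shCtrl and 47.9 to 64.9 TPM in shPCBP1. Only 2 of these 6 had a mean over 1 TPM, and of 2 with an adjusted p, 0 passed. The granulocyte and monocyte markers summed to 46.1 to 52.2 TPM in shCtrl and 45.4 to 53.1 TPM in shPCBP1, with 1 of 7 at a mean over 1 TPM. The part of these markers in the results on the factors was not tested.

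The factors were ordered first by their level per length, as summed TPM. In shCtrl, NFE2 was the highest at 228.4 ± 3.49 TPM (SD, n = 3 here and throughout), followed by GATA1 at 215.9 ± 1.32 TPM and GATA2 at 134.4 ± 7.06 TPM. LDB1 followed at 123.7 ± 1.33 TPM, then LMO2 at 114.8 ± 5.17 TPM, KLF1 at 113.1 ± 7.79 TPM and MYB at 79.3 ± 2.98 TPM. TAL1 was at 37.5 ± 0.834 TPM, ZBTB7A at 14.3 ± 0.703 TPM and BCL11A at 0.0819 ± 0.0117 TPM. Of neighbours in this order, only LMO2 and KLF1 had overlapping shCtrl libraries. In shPCBP1 the order was the same except in the middle, where LMO2 (127.7 ± 4.77 TPM) and GATA2 (126.7 ± 6.86 TPM) overlapped, as did KLF1 (112.0 ± 3.08 TPM) and LDB1 (108.9 ± 2.33 TPM). The LMO2 total includes 32.1 to 38.1 TPM of LMO2-206, a short model with no coding sequence. The GATA2 total includes GATA2-204, a model with a retained intron and no coding sequence, at a mean of 27.8 TPM in shCtrl and 18.7 TPM in shPCBP1. With GATA2-204 left out, the shCtrl mean of GATA2 lay below those of LDB1, LMO2 and KLF1.

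Of the 10 factors, 9 had enough counts for an adjusted p, and 5 of these passed the gene test (DESeq2 Wald test, Benjamini-Hochberg adjusted p under 0.05 over all genes). ZBTB7A, LMO2, TAL1 and MYB rose and LDB1 fell in shPCBP1. Among all 17095 genes with an adjusted p, 31.2% passed, with 17.7% higher and 13.5% lower. These shares, also set beside the lists below, were not matched for count level. No factor changed by more than 1 on the log2 scale, and 0 met the study's full rule (a shift of more than 1 on the log2 scale in either direction besides the adjusted p, at a mean above 10), against 1.37% of all genes. The median log2 fold change was 0.07 over the 9 factors and 0.0019 over all genes. In 6 of the 9 the normalized counts of the groups did not overlap, against 44.2% of all genes. In bulk RNA, a change in fewer cells and a smaller change in every cell cannot be told apart.

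**Figure D1:**
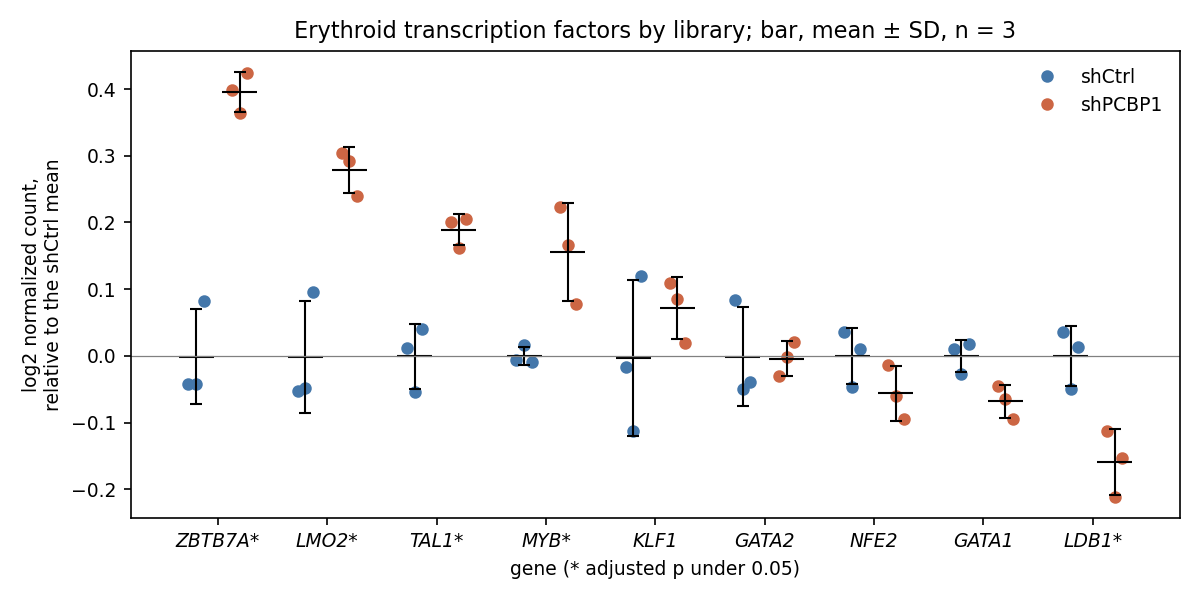
Normalized counts of the 9 factors with an adjusted p, on the log2 scale relative to the shCtrl mean (y axis), for each gene (x axis), with 1 point per library, a bar for the mean and whiskers for the SD (n = 3). The shPCBP1 libraries of ZBTB7A, LMO2, TAL1 and MYB all lie above their shCtrl libraries, and those of GATA1 and LDB1 all lie below.

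ZBTB7A (chromosome 19, 4043303 to 4066899, GRCh38, minus strand), a zinc finger repressor also called LRF, rose the most. Its normalized counts were 4904, 4904 and 5346 in shCtrl and 6656, 6502 and 6779 in shPCBP1 libraries. All shPCBP1 libraries were higher than all shCtrl libraries. The log2 fold change was 0.39 (SE 0.0512, DESeq2 adjusted p 6.12e-13), a ratio of 1.31. ZBTB7A had the lowest level per length of the 9 measurable factors, with 17.8, 17.7 and 17.5 TPM in shPCBP1 and 14.3, 13.6 and 15.0 TPM in shCtrl. BCL11A (chromosome 2, 60450520 to 60554467), the other fetal globin repressor of the set, was near the limit of detection at 27.8, 28.3 and 30.9 normalized counts in shCtrl and 18.0, 19.0 and 23.5 in shPCBP1, and received no adjusted p. The 27 BCL11A transcripts held none with a mean of 1 TPM.

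LMO2 (chromosome 11, 33858576 to 33892076, minus strand), the LIM-only bridge between TAL1 and GATA factors, had 9543, 9570 and 10567 normalized counts in shCtrl and 12214, 12113 and 11679 in shPCBP1. All shPCBP1 libraries were higher, and the log2 fold change was 0.28 (SE 0.0475, DESeq2 adjusted p 8.77e-08). With transcript length offsets it was 0.17 and still passed (DESeq2 adjusted p 0.0153). TAL1 (chromosome 1, 47216290 to 47232225, minus strand), the basic helix-loop-helix protein of the complex, had 12591, 12024 and 12844 normalized counts in shCtrl and 14349, 13971 and 14396 in shPCBP1. It rose by 0.19 on the log2 scale (SE 0.0397, DESeq2 adjusted p 2e-05), again without overlap. The LIM domain-binding protein LDB1 (chromosome 10, 102106489 to 102120368, minus strand), which dimerizes and joins distant enhancers to promoters, went the other way. Its normalized counts were 24131, 22739 and 23775 in shCtrl and 21776, 20343 and 21170 in shPCBP1. LDB1 fell by 0.16 (SE 0.0390, DESeq2 adjusted p 0.000345), without overlap, and its summed TPM lay above that of LMO2 in shCtrl and below it in shPCBP1. That change of order rested on LMO2-206, a short model with no coding sequence, at a mean of 35.0 TPM in shCtrl and 34.6 TPM in shPCBP1. With LMO2-206 left out, LMO2 lay below LDB1 in both groups. Within one complex, 2 members rose and 1 fell.

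MYB (chromosome 6, 135181308 to 135219173, plus strand), the progenitor factor, had 15961, 16203 and 15916 normalized counts in shCtrl and 18700, 17988 and 16911 in shPCBP1. The shCtrl libraries lay close together, and the shPCBP1 libraries were all higher but spread more widely. The log2 fold change was 0.16 (SE 0.0416, DESeq2 adjusted p 0.00102).

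GATA1 (chromosome X, 48786540 to 48794311, plus strand) had 21466, 20916 and 21595 normalized counts in shCtrl and 20665, 20383 and 19975 in shPCBP1. Every shPCBP1 library was lower than every shCtrl library, by little. The log2 fold change was -0.07 (SE 0.0343), with a 95% interval from -0.14 to -0.0011, and did not pass (DESeq2 adjusted p 0.119). It passed with TMM factors (adjusted p 0.0391), when the fit held protein-coding genes alone (0.0140), and when shCtrl replicate 2 was left out (0.0478), at log2 fold changes of -0.08, -0.09 and -0.08. GATA2 (chromosome 3, 128479427 to 128493201, minus strand) had 23364, 21291 and 21455 normalized counts in shCtrl and 21571, 22002 and 22356 in shPCBP1. These overlapped, and the log2 fold change was -0.0042 (95% interval -0.09 to 0.08, DESeq2 adjusted p 0.959). It turned positive without shCtrl replicate 1 (0.04) or without shPCBP1 replicate 1 (0.0092). GATA2 overlaps the antisense gene GATA2-AS1 over 3990 bases, and without a statement on strand in the quantification reads of the pair may not be fully separable.

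The balance of GATA1 and GATA2, which shifts as progenitors become red cells, was measured as the ratio of their summed TPM. It was 1.51, 1.64 and 1.68 in shCtrl and 1.70, 1.64 and 1.51 in shPCBP1. The log2 ratio differed by 0.0054 between the group means, less than the spread within either group (exact permutation test, two-sided, p = 0.8, smallest possible 0.1). This small difference depends on counting GATA2-204, a model with no coding sequence, at a mean of 27.8 TPM in shCtrl and 18.7 TPM in shPCBP1. With coding transcripts only, the mean log2 ratio was lower in shPCBP1, by the value given with the processing settings, and the libraries of the groups overlapped.

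KLF1 (chromosome 19, 12884422 to 12887201, minus strand), the erythroid Krüppel-like factor, had 12474, 11673 and 13722 normalized counts in shCtrl and 13613, 13389 and 12792 in shPCBP1. The groups overlapped, and the log2 fold change of 0.07 (SE 0.0532) did not pass (DESeq2 adjusted p 0.338). This rested on shCtrl replicate 3, the highest library, since without it the value was 0.14 and passed (DESeq2 adjusted p 0.0189). NFE2 (chromosome 12, 54292111 to 54301015, minus strand), the p45 subunit of the NF-E2 dimer, had 27943, 26394 and 27467 normalized counts in shCtrl and 27017, 26148 and 25522 in shPCBP1. The groups overlapped, and the difference of -0.06 on the log2 scale (SE 0.0369) did not pass (DESeq2 adjusted p 0.263).

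The forms of GATA1 were examined next. GENCODE lists 6 GATA1 transcripts, of which 4 had a mean of at least 1 TPM. GATA1-202, the MANE Select transcript, has 6 exons and codes for 413 amino acids from a start codon in exon 2. GATA1-203 leaves out exon 2 (chromosome X, 48791091 to 48791329, 239 bases), and its annotated coding sequence begins in exon 3 and gives 330 amino acids, 83 fewer, which is the short form. GATA1-204 and GATA1-206 are like GATA1-202 and GATA1-203 but begin the last exon 15 and 39 bases earlier. The start codons of the long and short forms lie at 48791110 and 48791873. They are shown because they set which protein a transcript encodes, with ATG in capitals and 12 bases before it, read from GRCh38, plus strand, 5′ to 3′.
Long form, exon 2, chrX:48791098-48791127: cccagaggctccATGgagttccctggcctg
Short form, exon 3, chrX:48791861-48791890: ttgctcaactgtATGgaggggatcccaggg

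**Figure D2:**
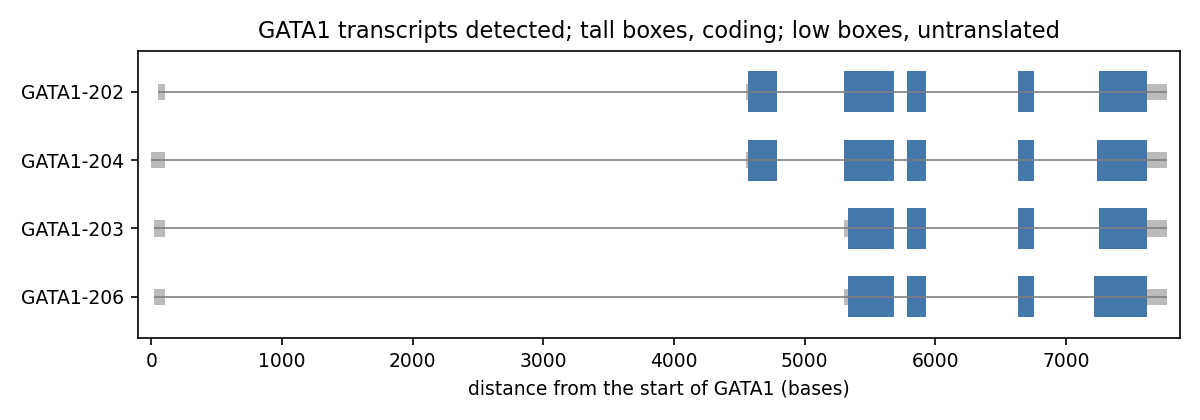
Exons of the 4 GATA1 transcripts with a mean of at least 1 TPM (y axis) by distance from the start of the gene in bases (x axis), drawn to scale with coding parts as tall boxes and untranslated parts as low boxes. GATA1-203 and GATA1-206 lack the second exon, and their coding part starts in the next exon.

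The full-length transcript GATA1-202 was at 143.7, 150.8 and 141.2 TPM in shCtrl and 117.4, 119.8 and 126.2 TPM in shPCBP1. The short-form transcript GATA1-203 was at 47.8, 41.5 and 51.4 TPM in shCtrl and 71.2, 72.4 and 59.5 TPM in shPCBP1. The levels did not overlap in either transcript, and they went in opposite directions. GATA1-203 thus made up 22.3%, 19.3% and 23.6% of GATA1 TPM in shCtrl and 34.9%, 35.1% and 29.4% in shPCBP1. GATA1-202 held 67.2% ± 2.55 in shCtrl and 59.3% ± 2.60 in shPCBP1. The log2 ratio of a transcript to the rest of its gene was tested with limma over 39874 transcripts with a mean of at least 1 TPM. For GATA1-203 it differed by 0.84 (SE 0.178, unadjusted p 0.0036) and did not pass (limma adjusted p 0.137). It passed when transcripts under a mean of 5 TPM were left out (limma adjusted p 0.0387). GATA1-202 differed by -0.50 (limma adjusted p 0.245).

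Summed over transcripts, GATA1 RNA without exon 2 was 27.1%, 24.6% and 29.0% of GATA1 TPM in shCtrl and 38.7%, 36.4% and 33.6% in shPCBP1. The means were 26.9% ± 2.19 and 36.2% ± 2.56, a difference of 9.30 percentage points. All shPCBP1 libraries were higher (exact permutation test, two-sided, p = 0.1, the smallest that 3 against 3 libraries allow). Transcripts with exon 2 were at 156.7, 162.4 and 154.3 TPM in shCtrl and 125.2, 131.1 and 134.6 TPM in shPCBP1. Those without it were at 58.3, 53.1 and 63.1 TPM in shCtrl and 79.0, 75.1 and 68.0 TPM in shPCBP1. The same transcripts and TPM also entered a limma test over 37773 annotated cassette exons, in which 0.0424% passed, so this is not a separate result. For exon 2 the log2 ratio of inclusion to skipping was lower by 0.62 in shPCBP1 (SE 0.191, unadjusted p 0.018) and did not pass (limma adjusted p 0.385). The share without exon 2 and this reading of it were added after the values were seen. The planned share, of coding transcripts other than the one with the longest coding sequence, took GATA1-204 as the long form and was 94.2% ± 0.364 and 95.5% ± 0.865 (exact permutation test, two-sided, p = 0.2), so it does not separate full length from short form. All of these shares rest on how Salmon divided reads among transcripts that share most of their sequence, and junction reads were not used here. The transcripts without exon 2 also start 28 bases upstream of GATA1-202, so first-exon reads enter the same estimates.

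**Figure D3:**
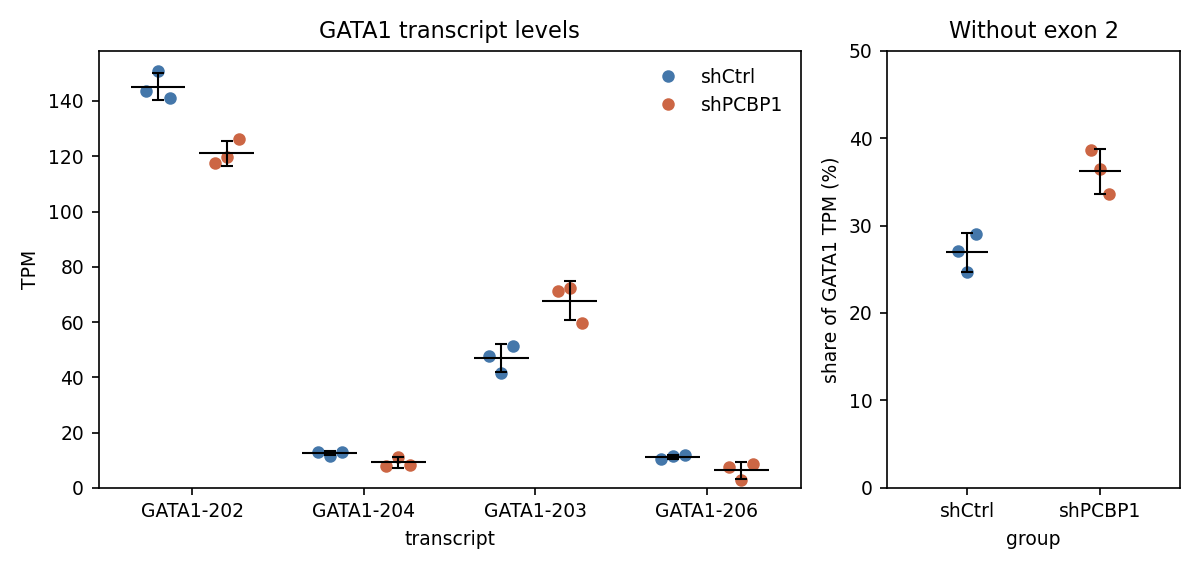
Levels in TPM (left y axis) of the 4 GATA1 transcripts (left x axis), and the share of GATA1 TPM without exon 2 in percent (right y axis) by group (right x axis), with 1 point per library, a bar for the mean and whiskers for the SD (n = 3). The shPCBP1 libraries lie below shCtrl for GATA1-202 and above it for GATA1-203, and the share without exon 2 is 33.6% to 38.7% against 24.6% to 29.0%.

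The 30 bases before these acceptors are shown because a polypyrimidine stretch, where there is one, lies there, with the AG in capitals. The exon 3 acceptor is shared by all listed GATA1 transcripts, and the others differ between forms. Pyrimidines made up 63.3% of the exon 2 window and 76.7% of the exon 3 window. They made up 56.7% of the last exon window of GATA1-202 and GATA1-203, and 36.7% of those of GATA1-204 and GATA1-206.
Exon 2 acceptor, chrX:48791061-48791090: tgtgtctgaggaccccttctgtcctcgcAG
Exon 3 acceptor, chrX:48791814-48791843: ctttcctccatccctacctgcccccaacAG
Last exon acceptor of GATA1-202 and GATA1-203, chrX:48793763-48793792: tggggacacccgcagcctcctttttggcAG
Last exon acceptor of GATA1-204, chrX:48793748-48793777: gcaaaggtctggagttggggacacccgcAG
Last exon acceptor of GATA1-206, chrX:48793724-48793753: ggtgtccctggttgacacagagaggcaaAG
Exon 3 is joined to exon 1 when exon 2 is left out, and to exon 2 otherwise. The window before exon 3 held 16 C bases in 30 (53.3%) with a longest run of 5. Over 34153 distinct cassette exons with counts, the median window held 23.3% C, and 2.49% of them held at least as much as exon 3. Exon 3 is not itself a cassette exon in GATA1, so this reference set is of another kind. The exon 2 window held 33.3% C, and 25.8% of those exons held at least as much. These are descriptions of sequence and not sites of binding.

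The last exon of GATA1 was also examined, by a share that was not planned. GATA1-206 counts both in this share and in the share without exon 2. Shares within one gene also depend on each other, so this is not a separate result. Transcripts with the extended last exon, GATA1-204 and GATA1-206, held 10.9%, 10.8% and 11.4% of GATA1 TPM in shCtrl and 7.61%, 6.80% and 8.36% in shPCBP1. The groups did not overlap, and the means differed by -3.42 percentage points (exact permutation test, two-sided, p = 0.1, the smallest possible). GATA1-204 was at 13.0, 11.6 and 13.0 TPM in shCtrl and 7.8, 11.3 and 8.4 TPM in shPCBP1. GATA1-206 was at 10.4, 11.6 and 11.7 TPM in shCtrl and 7.7, 2.7 and 8.5 TPM in shPCBP1, with shPCBP1 replicate 2 the lowest. Neither passed the share test (limma adjusted p 0.368 and 0.405).

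Across the 10 factors, 41 transcripts of 8 genes entered the share test and 0 passed, against 0.547% of all transcripts tested. At an unadjusted p under 0.05 there were 6 of the 41, against 6059 of all 39874 transcripts tested, which is a similar share. The 6 were GATA1-203, GATA1-202, GATA2-202, GATA2-204, MYB-203 and NFE2-204. In 13 of the 41 the shares of the groups did not overlap, against 23.3% of all transcripts. On simulated data the share test recovered 0 of 200 transcripts shifted by 1 on the log2 ratio, 69 of 200 shifted by 2 and 130 of 200 shifted by 3. These 200 were drawn at random from all 39874, each with its own spread, so the recovery is not that of the 41. Among the 41, the largest difference was 1.12 (TAL1-202).

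GATA2-202 uses an acceptor 42 bases further into its exon than GATA2-201 and GATA2-203, which shortens the protein from 480 to 466 amino acids. Both acceptors are shown because they define the short GATA2 form (GRCh38, minus strand, 5′ to 3′, AG in capitals).
Acceptor of GATA2-201 and GATA2-203, chr3:128481945-128481974: cagcctgctgacgctgccttgccctcccAG
Acceptor of GATA2-202, chr3:128481903-128481932: agagccggcacctgttgtgcaaattgtcAG
The upstream acceptor window held 46.7% C and the inner one 23.3%. GATA2-202 made up 3.6%, 2.5% and 3.0% of GATA2 TPM in shCtrl and 6.5%, 5.6% and 4.8% in shPCBP1. All shPCBP1 libraries were higher, at a log2 ratio difference of 0.93 (SE 0.200, unadjusted p 0.0038, limma adjusted p 0.138). With transcripts under a mean of 5 TPM left out it passed (limma adjusted p 0.0411). GATA2-204, a model with a retained intron and no coding sequence, held 23.1%, 18.4% and 20.4% in shCtrl and 14.8%, 15.1% and 14.5% in shPCBP1. All shPCBP1 libraries were lower, and the difference of -0.57 did not pass (limma adjusted p 0.198). The main coding forms GATA2-201 and GATA2-203 held 26.3% and 26.2% in shCtrl and 27.1% and 27.0% in shPCBP1. GATA2-202 also has its own 5′ start, so its share is not a measure of the acceptor alone.

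MYB had 41 listed transcripts, of which 9 had a mean of at least 1 TPM. MYB-205, which codes for 640 amino acids, was the most abundant at 46.9%, 47.8% and 52.7% of MYB TPM in shCtrl and 45.3%, 43.9% and 45.4% in shPCBP1. MYB-203 adds an exon of 363 bases (chromosome 6, 135196961 to 135197323) and codes for 761 amino acids. It held 9.9%, 8.7% and 10.0% in shCtrl and 12.8%, 12.5% and 12.1% in shPCBP1. The longer form was higher in all shPCBP1 libraries, at a log2 ratio difference of 0.43 (unadjusted p 0.022, limma adjusted p 0.251). By exon, inclusion was 12.2% ± 1.04 in shCtrl and 15.4% ± 0.512 in shPCBP1 (limma adjusted p 0.540).

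For NFE2, TAL1 and ZBTB7A, the main transcripts had one coding length per gene. NFE2-202, NFE2-201 and NFE2-204 all code for 373 amino acids, and the minor NFE2-204 held 4.3%, 3.3% and 4.6% in shCtrl and 5.0%, 5.3% and 6.0% in shPCBP1 (limma adjusted p 0.324). TAL1-206 and TAL1-202 both code for 331 amino acids. TAL1-202 held 10.3%, 4.1% and 4.8% in shCtrl and 5.4%, 30.0% and 9.9% in shPCBP1. The higher mean came from shPCBP1 replicate 2, and without that library the log2 ratio difference went from 1.12 to 0.32. ZBTB7A-201 and ZBTB7A-202 both code for 584 amino acids and held 55.6% and 44.4% of ZBTB7A TPM in shCtrl and 57.7% and 42.3% in shPCBP1, and KLF1 has 1 listed transcript.

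LMO2-202, which codes for 158 amino acids, held 43.4%, 44.6% and 42.1% of LMO2 TPM in shCtrl and 46.2%, 48.4% and 48.7% in shPCBP1. The groups did not overlap (limma adjusted p 0.409). LMO2-201, with 227 amino acids and a start far upstream, held a mean of 15.4% in shCtrl and 16.7% in shPCBP1. The short model LMO2-206, with no coding sequence, held 30.5% in shCtrl and 27.0% in shPCBP1 on 227 to 466 estimated counts per library. LDB1-201, LDB1-204 and LDB1-202 code for 375, 411 and 409 amino acids and held 44.4%, 37.4% and 16.1% in shCtrl and 44.1%, 35.9% and 17.5% in shPCBP1.

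**Figure D4:**
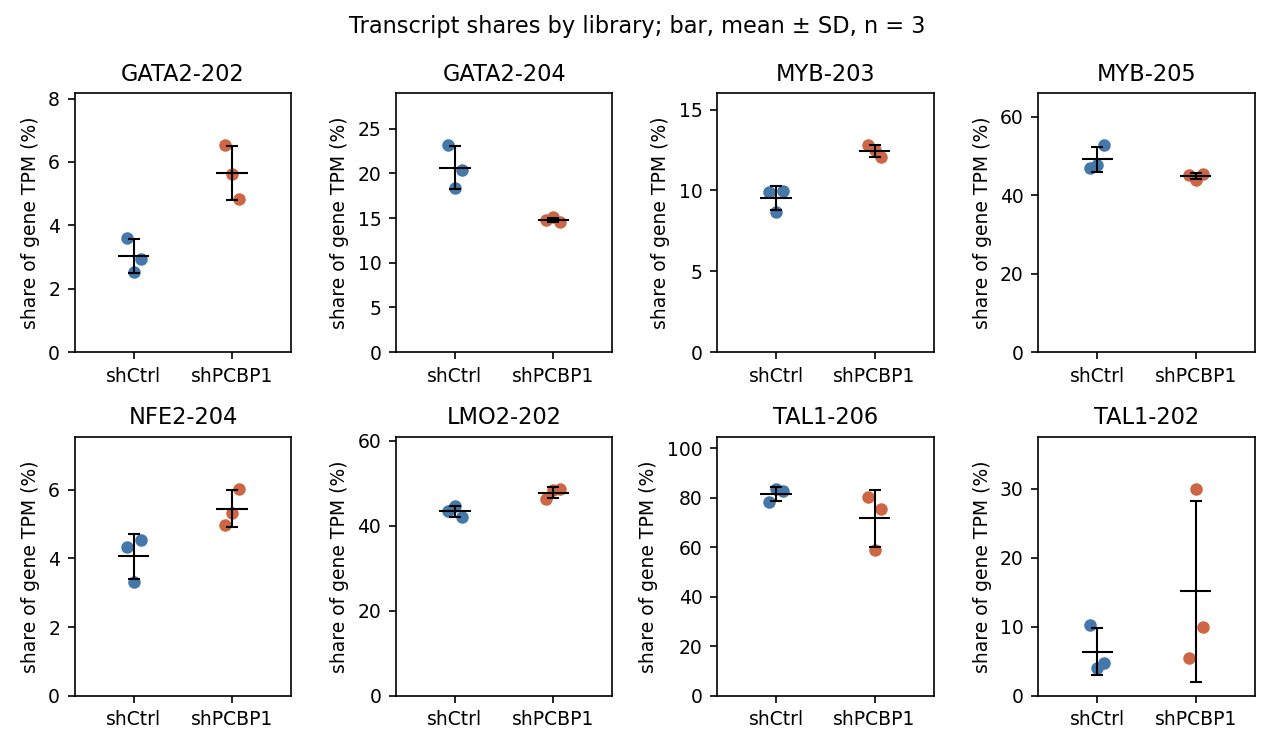
Share of the TPM of its gene in percent (y axis) for 8 transcripts of GATA2, MYB, NFE2, LMO2 and TAL1 in each group (x axis), with 1 point per library, a bar for the mean and whiskers for the SD (n = 3). GATA2-202, MYB-203, NFE2-204 and LMO2-202 lie higher in every shPCBP1 library and GATA2-204 and MYB-205 lower, and the mean of TAL1-202 rests on the library at 30.0%.

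The genes around these factors were read from the same fit. Of 95 genes in 6 lists, 89 had an adjusted p, and 37 passed, with 25 higher and 12 lower, against 31.2% of all genes (17.7% higher and 13.5% lower). Partners of the GATA1 and TAL1 complex passed in 4 of 11 cases, near the 31.2% of all genes. The E proteins TCF3 and TCF12, which pair with TAL1, rose by 0.27 and 0.15 on the log2 scale, and LMO4, a relative of LMO2, rose by 0.16. The E protein TCF4, named after its value was seen, did not pass (log2 fold change -0.04, DESeq2 adjusted p 0.710). LYL1, the closest relative of TAL1, fell by 0.12. TCF3 had 23626, 22374 and 23733 normalized counts in shCtrl and 29006, 27668 and 27192 in shPCBP1. The corepressor CBFA2T3 did not pass (log2 fold change -0.06, DESeq2 adjusted p 0.406). The list median was 0.01.

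Partners and relatives of NF-E2 passed in 5 of 8 cases, with 3 higher (17.7% of all genes) and 2 lower (13.5%). BACH2, a repressor that shares the small MAF partners of NFE2, rose from 1157 ± 95.0 to 1954 ± 239 normalized counts, a log2 fold change of 0.76 with an SE of 0.0988 (DESeq2 adjusted p 9.28e-13). NFE2L1 rose by 0.24 and MAFK, the small partner, by 0.18, while NFE2L3 fell by 0.16. NFE2L2 also fell, by 0.15, and is named after its value was seen. MAFG did not pass (log2 fold change 0.07, DESeq2 adjusted p 0.176).

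Corepressors that GATA1, BCL11A and ZBTB7A recruit passed in 10 of 18 cases, all higher, where 17.7% of all genes were higher, and the list median was 0.11. The lowest mean of the 18 was 2261 normalized counts (MTA3), and the share over all genes also covers genes with far fewer counts. The list also counts GFI1B, itself a transcription factor, among the 10. DNMT1, the maintenance DNA methyltransferase, rose by 0.36 (SE 0.0331, DESeq2 adjusted p 4.68e-25), from 32122 ± 195 to 41178 ± 1192 normalized counts. The NuRD subunits HDAC1 and MTA2 rose by 0.29 each, and NCOR1 by 0.24. CHD4, the NuRD ATPase, did not pass (log2 fold change 0.07, DESeq2 adjusted p 0.0836).

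Other hematopoietic factors passed in 6 of 15 cases, beside 31.2% of all genes. SPI1, the myeloid factor PU.1 that opposes GATA1, was the one that fell, with 3073, 3363 and 2764 normalized counts in shCtrl and 1774, 1859 and 1962 after knockdown. Its log2 fold change was -0.72 (SE 0.0795, DESeq2 adjusted p 1.49e-17). SOX6, which represses embryonic and fetal globin, rose by 0.47, FOXO3 by 0.34 and RUNX1 by 0.25. IKZF1 and HHEX, named after their values were seen, rose by 0.19 and 0.21. STAT5A did not pass (DESeq2 adjusted p 0.485).

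Known targets of GATA1 and KLF1 passed in 11 of 32 cases, near the 31.2% of all genes, with 3 higher (17.7% of all genes) and 8 lower (13.5%), and the list median was -0.04. TFR2, transferrin receptor 2, had 14521, 14436 and 14289 normalized counts in shCtrl and 7388, 7101 and 7523 in shPCBP1, a log2 fold change of -0.97 with an SE of 0.0399 (DESeq2 adjusted p 6.9e-128). PPOX, an enzyme of heme synthesis, fell by 0.62, PKLR, the red cell pyruvate kinase, by 0.60, and AHSP, which stabilizes alpha globin, by 0.59. BCAM, at a mean of 65.9 normalized counts, was the 1 gene of these lists that met the study's rule (log2 fold change -1.15, DESeq2 adjusted p 0.0275), with the shPCBP1 libraries at 25.9, 26.1 and 72.0. The 3 that rose were E2F2 (0.56), TRIM58 (0.17) and HBG1 (0.16), and these and BCAM are named after their values were seen. HBG2, which shares most of its sequence with HBG1, did not pass (log2 fold change 0.07, DESeq2 adjusted p 0.285). Of 5 progenitor genes with an adjusted p, CD44 rose by 0.37, and CDK6 did not pass (DESeq2 adjusted p 0.219).

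**Figure D5:**
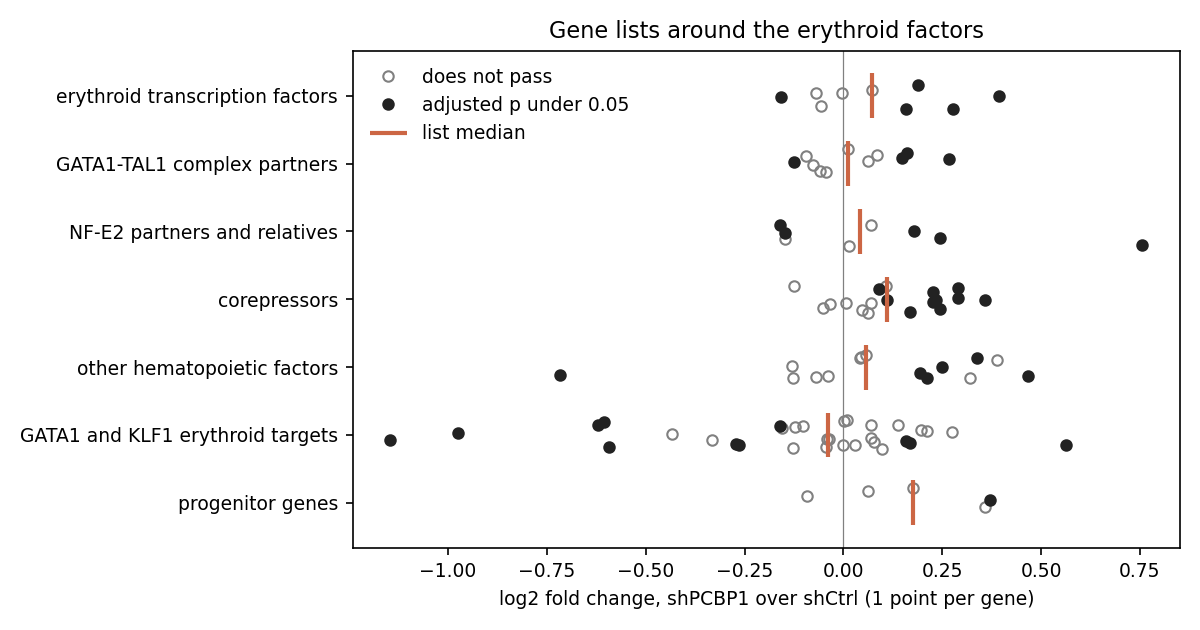
Log2 fold change of shPCBP1 over shCtrl (x axis) for each gene with an adjusted p in the factor set and the 6 lists around it (y axis), filled where the adjusted p was under 0.05, with a line at the list median. Corepressors that passed all lie above 0, and the targets of GATA1 and KLF1 spread from -1.15 to 0.56.

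The genes with the profile most like GATA1 over the 6 libraries, by the root mean square difference of centred log2 normalized counts among 11219 protein-coding genes, were CIAO2A (0.00865), RPS12 (0.00937) and HADHA (0.00980). Those most like ZBTB7A were FAT1 (0.0170), LMTK2 (0.0216) and IL6ST (0.0217).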

How the data were processed

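Poly-A RNA of 3 shCtrl and 3 shPCBP1 libraries of K562 cells was used, grouped and numbered as the labels give them. Salmon (1.10.2 in the submitters' processing notes, with hg38) was run by the authors on each library. Its deposited estimated counts per transcript carry no normalization, and its deposited TPM values are relative to effective length and to the library. Of 252045 transcripts, 251612 were found in GENCODE release 44, and the rest, 0.136% to 0.147% of a library's counts, were left out. Whether counting used strand is not given in the sources used here.

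Counts were summed per gene and rounded, and genes with at least 10 summed counts entered DESeq2 1.42.0 (Wald test, two-sided, group as the only term). Missing adjusted p-values stayed missing. Transcripts with a mean of at least 1 TPM, in genes with at least 1 TPM in other transcripts, entered limma 3.58.1 as log2 ratios with a pseudocount of 0.1 TPM. Single values used exact permutation tests. The members and lists were chosen with earlier results of these data known. Genes named from a list were up to 4 with the largest change among those that passed at a mean of at least 100 normalized counts, and the most abundant that did not pass. Transcripts named had a mean of at least 1 TPM or a share of at least 5%. For GATA1 and the factor with the lowest p, the 3 protein-coding genes nearest in profile were named.

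Libraries of one group differed by more than sampling noise (chi-square per degree of freedom 6.19 to 15.1). Correlations of same-numbered libraries were 0.03, -0.03 and -0.02, so the numbers were not taken as pairs. Tested on simulated data over 21567 genes, the gene test called 195 of 200 genes that had been given a 3-fold change and 25 that had not. The factors all changed by less than this, so the check does not describe the test at their size of change. Alternatives used edgeR 4.0.16, other filters, factors and pseudocounts, a replicate block and leaving out libraries. R 4.3.3 and Python 3.11.15 were used.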

Additional observations from a re-analysis of the deposited data

How the results depend on the processing

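Over the 9 factors with an adjusted p and PCBP1, 80 gene differences were refitted with another tool, factor, filter or block, and 78 kept their direction and side of the threshold, while GATA1 passed in the other 2. Between 5 and 6 factors passed under every setting and with any library left out, and between 29 and 39 of the surrounding genes. With a library left out, GATA2 lay between -0.027 and 0.040, positive without shCtrl replicate 1 (0.040) and without shPCBP1 replicate 1 (0.0092). The replicate block changed no call of a factor, with 5 passing, and no call of a factor's transcript. The number of transcripts with a changed share was 218, and it was 436 with a pseudocount of 1 TPM, 580 with a mean of at least 5 TPM (fewer transcripts tested), 41 with the replicate block and 103 to 155 with a library left out. With a mean of at least 5 TPM, 2 transcripts of the factors passed, GATA1-203 and GATA2-202. The log2 ratio of GATA1 to GATA2 differed by -0.095 when coding transcripts only were summed, which leaves out GATA2-204. With libraries left out, the share without GATA1 exon 2 differed by 8.07 to 10.6 percentage points.

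None of the transcript shares that changed sign was called under any setting. LDB1-201 did so with estimated counts (0.021). With coding transcripts only, so did GATA2-213 (-0.025), GATA2-201 (-0.088), GATA2-203 (-0.092) and LMO2-201 (-0.020). With a library left out, the log2 ratio differences that took both signs ranged from -0.44 to 0.069 for GATA2-207, -0.077 to 0.19 for MYB-221, -0.33 to 0.080 for GATA2-205, -0.29 to 0.13 for GATA2-209, -0.077 to 0.41 for MYB-209, -0.066 to 0.054 for LDB1-201, -0.033 to 0.39 for LDB1-203, -0.26 to 0.0096 for LMO2-205, -0.40 to 0.0037 for MYB-220, -0.45 to 0.029 for TAL1-203, -0.020 to 0.12 for GATA2-201 and -0.043 to 0.20 for NFE2-201. The cause of these differences was not tested. Low counts limit what can be read for BCL11A, at under 31 normalized counts per library, and for transcript models with few reads.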
